A study of Mus musculus with 9 samples.

Results

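The microRNA precursor families of Rfam were followed in exosomes of silica-treated macrophages. Rfam groups related hairpins under one family name, and the members were all families that a deposited table assigned to the precursor class in at least 1 library. There were 149 such families among 14210 distinct small RNA features of all classes, 1101 of which were known mature miRNAs. The vesicles were pelleted by ultracentrifugation from cultures of the mouse macrophage line RAW264.7, kept in DMEM that contained fetal bovine serum, and their total RNA was used for small RNA libraries. Cultures were untreated (NC in the labels) or exposed to silica for 24 h or 48 h, and each condition had 3 libraries. Neither the silica dose nor the untreated culture time is given in the labels read. The 3 libraries of a condition are described as independent, though separate cultures are not named, so the p-values measure only the spread between these libraries, which may be technical.

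A microRNA gene is transcribed as a long primary transcript, from which the enzyme Drosha cuts a hairpin and Dicer cuts a short duplex. One strand of the duplex is loaded into an Argonaute protein and guides it to mRNAs that pair with the seed, the bases near its 5′ end. Exosomes are known to carry mature miRNAs, and pieces of hairpins are also found in vesicle RNA. A read in the precursor class here is a read the authors assigned to a hairpin family and not to a known mature miRNA. The sources used here do not say which part of a hairpin such reads cover, or whether any is a full hairpin.

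Hairpins of the families with the most precursor reads, or with groups that did not overlap at 24 h, are shown with the mature arms that the table annotates in capitals. They were taken from RefSeq (GRCm38.p6), 5′ to 3′, and all lie on the strand given. Gene context is that of GENCODE vM21.
Mir221, chrX:19146294-19146388, minus strand, between genes: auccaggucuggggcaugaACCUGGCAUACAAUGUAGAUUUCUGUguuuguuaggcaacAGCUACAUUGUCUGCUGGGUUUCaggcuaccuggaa
Mir222, chrX:19146893-19146971, minus strand, between genes: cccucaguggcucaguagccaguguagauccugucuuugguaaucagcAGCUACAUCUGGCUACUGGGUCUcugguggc
Mir23a, chr8:84208518-84208592, plus strand, between genes: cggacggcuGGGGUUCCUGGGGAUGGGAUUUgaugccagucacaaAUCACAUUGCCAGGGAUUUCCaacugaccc
Mir27a, chr8:84208672-84208758, plus strand, between genes: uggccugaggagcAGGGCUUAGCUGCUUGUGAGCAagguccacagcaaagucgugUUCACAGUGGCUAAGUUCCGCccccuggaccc
Mir24-2, chr8:84208815-84208921, plus strand, overlapping an exon of the lincRNA Gm26532: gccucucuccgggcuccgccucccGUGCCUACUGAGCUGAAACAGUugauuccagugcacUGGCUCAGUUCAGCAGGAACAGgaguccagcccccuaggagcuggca
Mir30a, chr1:23272269-23272339, plus strand, between genes: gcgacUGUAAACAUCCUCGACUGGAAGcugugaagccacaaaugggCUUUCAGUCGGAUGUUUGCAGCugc
Mir139, chr7:101475376-101475443, plus strand, in an intron of Pde2a: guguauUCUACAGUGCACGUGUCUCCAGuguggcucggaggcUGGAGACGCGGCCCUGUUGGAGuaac
Mir182, chr6:30165918-30165992, minus strand, between genes: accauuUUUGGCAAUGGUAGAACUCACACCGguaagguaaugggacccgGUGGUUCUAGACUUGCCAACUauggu

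The lower-case bases lie outside the arms that this table annotates. They are mostly flanks and loop, but for Mir222 the table holds the 3p arm alone, so its 5p arm is in lower case too. They made up 48.4% of the Mir221 hairpin, 42.7% of Mir23a, 58.9% of Mir24-2 and 38.03% of Mir30a. Of the 149 families, 89 matched at least 1 RefSeq hairpin of the mouse, with 185 hairpins in all. Hairpins were matched by the number in the name or else by the deposited family label of the mature miRNA.

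The guide strands of these families are shown next, with the seed (bases 2 to 8) in capitals, because the families differ in seed even where their genes lie side by side.
miR-221-3p: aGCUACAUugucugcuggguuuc
miR-222-3p: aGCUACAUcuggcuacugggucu
miR-27a-3p: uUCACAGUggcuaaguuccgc
miR-27b-3p: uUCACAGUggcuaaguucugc
miR-23a-3p: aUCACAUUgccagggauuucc
miR-24-3p: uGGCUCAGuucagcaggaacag
miR-30a-5p: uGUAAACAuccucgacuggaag
miR-139-5p: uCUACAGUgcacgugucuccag
miR-182-5p: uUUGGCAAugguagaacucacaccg
miR-221-3p and miR-222-3p shared 1 seed, and so did miR-27a-3p and miR-27b-3p. The other guides shown each had a seed of their own.

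Levels are RPM, counts scaled to a total of 1000000 counted reads of all classes in the deposited table. The libraries held 12810663 ± 3170516 counts (mean ± SD, n = 9), of which 132497 to 506909 per library were precursor reads. RPM is not corrected for the length of a hairpin or the number of hairpins in a family, so an order of families is an order of reads. A count of 3 in a library came to 0.161 to 0.389 RPM, which covers counting error only. RPM is a share of the counted reads of a library, so it gives neither the number of vesicles nor the amount of RNA per vesicle. Vesicle number was not measured. Known macrophage miRNAs were present as mature forms: miR-155-5p at 199 to 529 RPM, miR-223-3p at 16.9 to 77.9 RPM and miR-146a-5p at 7960 to 27705 RPM. Mature miR-142a-3p ranged more widely, from 3.63 to 123.3 RPM, as did miR-142a-5p, from 4.80 to 115.6 RPM. Both miR-142a forms were lowest in the third 24 h library and highest in the second 48 h library. Precursor reads of mir-223, a myeloid family, reached only 1.14 to 6.15 RPM, and those of mir-142, a blood cell family, 0 to 2.09 RPM.

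Precursor reads made up 2.45%, 2.01% and 4.52% of all counted reads in the untreated libraries, a mean of 2.99% ± 1.34 (SD, n = 3). At 24 h the share was 2.15%, 1.73% and 1.72%, or 1.86% ± 0.247 (SD, n = 3). At 48 h it was 2.48%, 2.60% and 3.58%, or 2.89% ± 0.606 (SD, n = 3). The 24 h libraries were low and close together, but the first of them lay above the second untreated library, so 24 h and untreated overlapped. Every 48 h library had a higher share than every 24 h library, and untreated overlapped 48 h. Against 100 mature reads there were 4.66 to 11.5 precursor reads per library.

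A few families held most of the class. The 10 highest carried over 90% of the 2960128 precursor counts, and mir-221, mir-23 and mir-27 together held 59.5% to 78.9% in each library. At the other end, 52 families had under 10 counts over all 9 libraries and 26 were listed in only 1 library, while 68 were listed in every library.

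**Figure D1:**
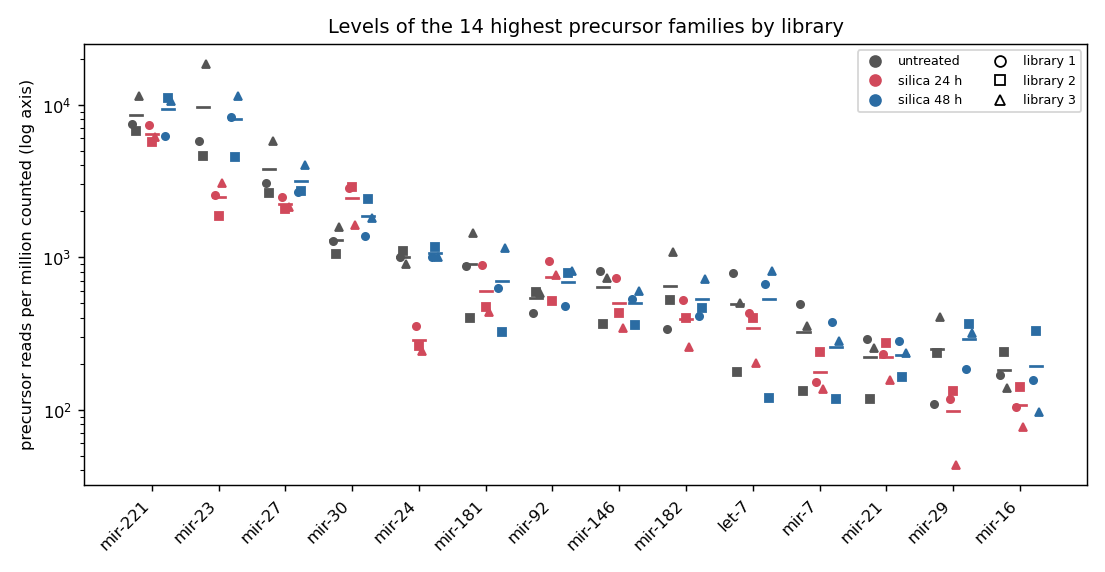
Precursor level in RPM (log axis) for the 14 families with the highest mean level. Points are libraries, shaped by replicate number and coloured by group, and bars are group means. The 24 h libraries of mir-24 lie apart from the other 6 libraries, between 241 and 352 RPM.

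The mir-221 family, which holds miR-221 and miR-222, regulators of the cell cycle and of the receptor Kit, was the highest by mean. Its untreated libraries had 7517, 6716 and 11405 RPM, those at 24 h 7408, 5651 and 6131 RPM, and those at 48 h 6256, 11096 and 10540 RPM. The ranges overlapped in each comparison. Precursor reads were 20.5% to 34.0% of all reads of the family, that is, of its precursor and mature reads together.

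The mir-23, mir-27 and mir-24 families come from the same 2 gene clusters, one on chromosome 8, shown above, and one on chromosome 13. Precursor reads of all 3 were lower in every 24 h library than in every untreated library and every 48 h library. The precursor levels of mir-24 were 998, 1102 and 905 RPM in untreated, 352, 261 and 241 RPM at 24 h and 1007, 1166 and 1008 RPM at 48 h. The untreated and 48 h ranges overlapped, and the 24 h group stood below both. Means were 1002 ± 98.5, 285 ± 58.9 and 1060 ± 91.3 RPM (SD, n = 3 each). The log2 fold change of mir-24 at 24 h against untreated was -1.81 ± 0.43 (SE; edgeR quasi-likelihood test, unadjusted p = 0.00137, Benjamini-Hochberg adjusted p = 0.508 over 1875 features). Against 24 h the 48 h group had 1.90 ± 0.43 (SE; edgeR adjusted p = 0.347), and against untreated it had 0.08 ± 0.42 (SE; edgeR adjusted p = 1). DESeq2 called mir-24 in both comparisons with the 24 h group, with log2 fold changes of -1.93 (DESeq2 adjusted p = 0.00133) and 2.06 (DESeq2 adjusted p = 0.000454). Over the settings tried, the adjusted p of mir-24 ran from 0.00133 to 0.853 at 24 h against untreated and from 0.000454 to 0.709 at 48 h against 24 h. These comparisons share the 24 h libraries and are not independent of each other. Known miR-3074 hairpins lie antisense over both mir-24 genes, and the sources used here do not give the strand used in counting, so their reads cannot be told apart.

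The mir-23 family had precursor levels of 5765, 4573 and 18463 RPM in untreated, 2562, 1856 and 3057 RPM at 24 h, and 8295, 4531 and 11481 RPM at 48 h. The third untreated library was over 3 times the other two, so the spread of that group was wide. The log2 fold change of mir-23 at 24 h against untreated was -1.95 ± 0.59 (SE; edgeR unadjusted p = 0.00673, adjusted p = 0.755), and without the third untreated library it was -1.05. The 48 h group had 1.70 ± 0.58 against 24 h (SE; edgeR adjusted p = 0.497). Against untreated it had -0.24 ± 0.57 (SE; edgeR adjusted p = 1).

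The mir-27 family, known for its part in lipid metabolism and macrophage activation, differed less. Its precursor level was 3050, 2621 and 5757 RPM in untreated, 2496, 2078 and 2147 RPM at 24 h, and 2691, 2728 and 4044 RPM at 48 h. The lowest untreated and the highest 24 h library were close. Every 48 h library lay above every 24 h library. The log2 fold change of mir-27 at 24 h was -0.77 ± 0.43 (SE; edgeR adjusted p = 0.767), and without the third untreated library it was -0.34. The 48 h group had 0.49 ± 0.43 against 24 h (SE; edgeR adjusted p = 0.832), or 0.27 without the third 48 h library, and -0.27 ± 0.43 against untreated (SE; edgeR adjusted p = 1).

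The mature miRNAs were read beside them. Mature mir-24 reads were 43060, 8762 and 9505 RPM in untreated, 4640, 4317 and 2888 RPM at 24 h and 35161, 9719 and 15436 RPM at 48 h, so the mature form was also lowest in the 24 h group. Mature mir-23 reads were 20756, 36934 and 19418 RPM in untreated, 33823, 35345 and 22024 RPM at 24 h and 23317, 42299 and 24350 RPM at 48 h, with groups that overlapped. Mature mir-27 reads were 30326, 38101 and 57605 RPM in untreated, 27612, 22902 and 21539 RPM at 24 h and 26499, 39288 and 39988 RPM at 48 h. The 24 h group of mature mir-27 lay below untreated and overlapped 48 h, so mature reads of mir-24 and mir-27, but not of mir-23, were lower at 24 h than in untreated without overlap. Precursor reads were 21.7%, 11.02% and 48.7% of the mir-23 reads in untreated, 7.04%, 4.99% and 12.2% at 24 h, and 26.2%, 9.68% and 32.04% at 48 h. These shares of mir-23 overlapped between groups. For mir-27 the precursor share lay between 6.44% and 9.22% in all 9 libraries.

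**Figure D2:**
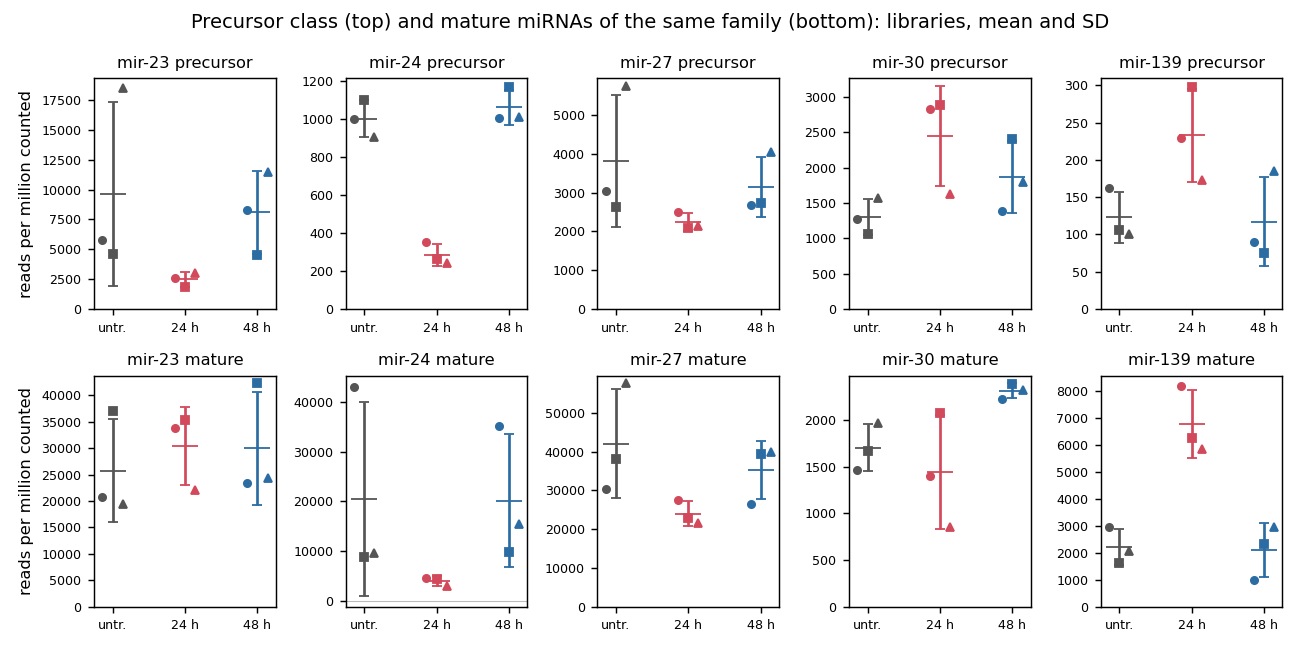
Precursor reads (top) and mature reads (bottom) of 5 families in RPM by group, with each library as a point, the mean as a horizontal bar and the SD as a whisker. Precursor and mature reads of mir-24 are both lowest at 24 h; for mir-23 and mir-30 the precursor groups at 24 h and untreated do not overlap while the mature groups do.

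The mir-30 family, which is linked to differentiation and to autophagy genes, lay the other way. Its precursor level was 1280, 1055 and 1569 RPM in untreated, 2821, 2886 and 1631 RPM at 24 h and 1386, 2403 and 1798 RPM at 48 h. The 24 h group did not overlap the untreated group, though library 3 of it was only just above it. The log2 fold change of mir-30 at 24 h was 0.91 ± 0.44 (SE; edgeR unadjusted p = 0.0607, adjusted p = 0.755), and 0.56 with TMM scaling. Mature mir-30 reads were 1471, 1671 and 1972 RPM in untreated, 1399, 2080 and 855 RPM at 24 h and 2231, 2387 and 2326 RPM at 48 h. The precursor share of mir-30 reads was 46.5%, 38.7% and 44.3% in untreated, 66.9%, 58.1% and 65.6% at 24 h and 38.3%, 50.2% and 43.6% at 48 h. All 3 libraries at 24 h had a higher share than the other 6; this quantity was picked after its values were seen and was not tested.

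The mir-139 family, whose hairpin lies in Pde2a, had precursor levels of 163, 105 and 101 RPM in untreated, 229, 297 and 173 RPM at 24 h and 90.5, 75.2 and 185 RPM at 48 h. The 24 h group stood above untreated but overlapped 48 h. Its mature reads were 2946, 1637 and 2062 RPM in untreated, 8204, 6283 and 5856 RPM at 24 h and 1003, 2343 and 2976 RPM at 48 h. Mature and precursor reads of mir-139 were thus both highest at 24 h on average, and the precursor share did not exceed 8.28% in any library.

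Among the other leading families, mir-181, a family known from lymphocyte development, had 880, 398 and 1445 RPM in untreated, 889, 473 and 439 RPM at 24 h and 627, 321 and 1146 RPM at 48 h. The mir-92 family of the mir-17 cluster had 430, 591 and 585 RPM, then 946, 513 and 765 RPM, then 479, 782 and 808 RPM in the same order. The mir-146 family, induced by inflammatory signalling through NF-kB, had 812, 363 and 727 RPM, then 724, 433 and 345 RPM, then 530, 362 and 601 RPM. All 3 overlapped between groups. The mir-182 family, best known from sensory and epithelial cells, had 338, 527 and 1083 RPM in untreated, 523, 397 and 259 RPM at 24 h and 410, 465 and 724 RPM at 48 h. Precursor reads of let-7, the family of differentiation-linked tumour suppressors, had 792, 177 and 500 RPM in untreated, 433, 400 and 201 RPM at 24 h and 670, 120 and 812 RPM at 48 h. These groups overlapped too, and the second untreated and second 48 h libraries were the lowest for let-7.

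For the test across features, 75 of the 149 families passed the filter on low counts, and they held at least 99.94% of the precursor counts of each library. edgeR's quasi-likelihood test, adjusted over all 1875 features, called 0 of 75 families at 24 h against untreated, where the background share of features called was 0%. At an unadjusted p under 0.05 there were 3 of 75 families against 6.03% of all features; all 3 (mir-24, mir-23 and mir-33) were lower, as were 2.99% of features, while 3.04% were higher. DESeq2 called 1 family (mir-24) and limma-voom 0. At 48 h against untreated edgeR called 0 families (background 0%), 1 (mir-101, lower) had an unadjusted p under 0.05 against 2.93% of features (2.19% lower and 0.747% higher), and DESeq2 and limma-voom called 0. Between 48 h and 24 h edgeR called 0 families (background 0%). An unadjusted p under 0.05 was found for 5 families against 9.28% of features: mir-24, mir-23, mir-29 and mir-301 higher (3.63% of features) and mir-71 lower (5.65%). DESeq2 called 1 (mir-24) and limma-voom 0. The median log2 fold change of the 75 families was -0.03 at 24 h against 0.08 over all features, -0.07 at 48 h against -0.10, and -0.22 for 48 h against 24 h, where all features had -0.26.

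Groups that did not overlap were counted in the same way. At 24 h against untreated, 13 of 75 families (17.3%) had separate groups, against 13.8% of all features. Of these, 6 were higher (mir-30, mir-139, mir-451, mir-133, mir-276 and mir-160; 9.49% of features were) and 7 lower (mir-23, mir-27, mir-24, mir-26, mir-96, mir-101 and mir-301; 4.27% of features were). At 48 h against untreated 2 families did, against 3.89% of features: mir-484 higher (1.6% of features) and mir-101 lower (2.29%). Between 48 h and 24 h, 9 families (12%) did, against 16.5% of features. Here mir-23, mir-27, mir-24, mir-29, mir-210 and mir-301 were higher, with 4.37% of features higher, and mir-451, mir-184 and mir-133 were lower, with 12.1% of features lower. The total share of families with separate groups was near the background in each comparison. Of the 6 families higher at 24 h against untreated, mir-160 is named for plants and mir-276 is known from invertebrates, both at low levels. Precursor reads of mir-160 were 0, 0.904 and 0 RPM in untreated and 1.101, 1.11 and 0.908 RPM at 24 h. Those of mir-276 were 0.926, 0.557 and 0.445 RPM in untreated and 1.101, 1.804 and 4.931 RPM at 24 h.

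**Figure D3:**
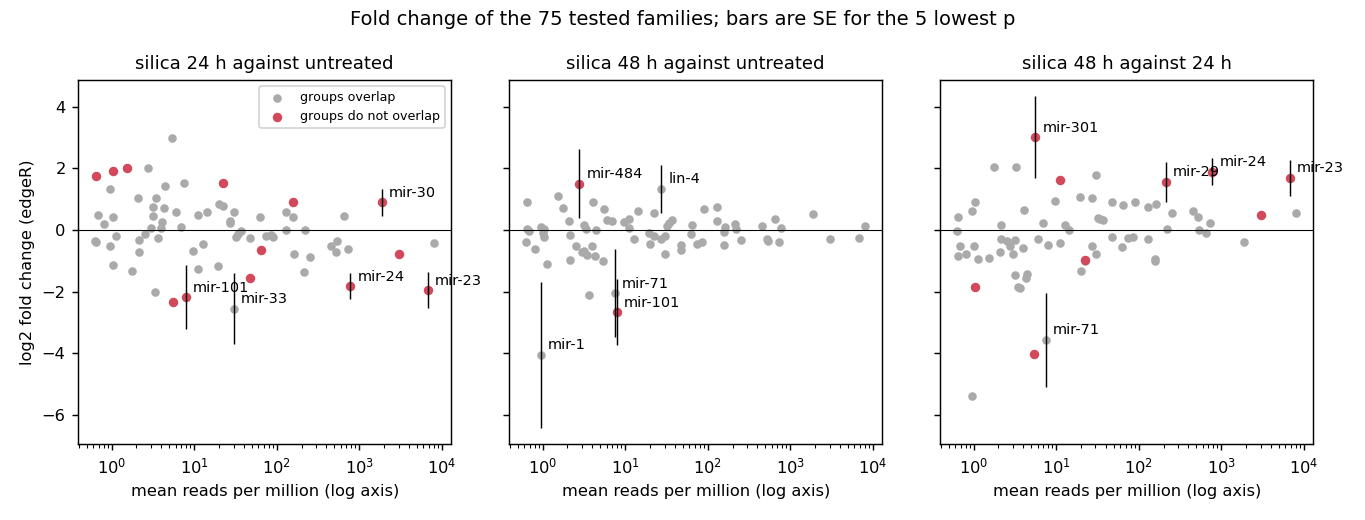
Log2 fold change from edgeR of the 75 tested families against their mean level in RPM (log axis), in the 3 comparisons. Red points are families whose groups do not overlap, and the 5 lowest p of each panel are named with SE bars. The named families at high level in the left panel are mir-23 at -1.95, mir-24 at -1.81 and mir-30 at 0.91.

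Families at lower levels with a low p often rested on 1 library. Precursor reads of mir-33, whose miRNAs target cholesterol export genes, were 5.49, 122 and 26.5 RPM in untreated, 6.24, 9.78 and 10.3 RPM at 24 h and 6.55, 71.0 and 13.1 RPM at 48 h. The log2 fold change of mir-33 at 24 h was -2.55 ± 1.16 (SE; edgeR adjusted p = 0.755), and -0.87 without the second untreated library. Mature mir-33 was high in the same 2 libraries, with 1551 RPM in the second untreated and 928 RPM in the second 48 h library against 43.5 to 95.7 RPM in the other 7.

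Precursor reads of mir-101 were 6.81, 37.0 and 7.75 RPM in untreated, 4.4, 3.68 and 3.37 RPM at 24 h and 5.33, 0.482 and 2.36 RPM at 48 h. Its log2 fold change was -2.17 ± 1.04 at 24 h (SE; edgeR adjusted p = 0.755) and -2.66 ± 1.06 at 48 h (SE; edgeR unadjusted p = 0.0283, adjusted p = 1). Without the second untreated library these were -0.93 and -1.42. Mature mir-101 reads were 78.3 RPM in the second 48 h library, where precursor reads were lowest. Of these mature forms, miR-101b-3p was at 53.3 RPM there and at 53.8 RPM in the second untreated library, where precursor reads were highest.

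For mir-29, a family known to target collagen mRNAs, precursor levels were 108, 236 and 405 RPM in untreated, 117, 132 and 43.2 RPM at 24 h and 185, 364 and 316 RPM at 48 h. The 48 h group lay above the 24 h group, with a log2 fold change of 1.57 ± 0.66 (SE; edgeR adjusted p = 0.521), and untreated overlapped both. Precursor reads of mir-301 were 1.28, 1.60 and 0.649 RPM at 24 h and 2.18, 24.6 and 2.09 RPM at 48 h, and 1.72, 14.5 and 1.69 RPM in untreated. Its log2 fold change at 48 h against 24 h was 3.01 ± 1.33 (SE; edgeR adjusted p = 0.521), and 0.85 without the second 48 h library.

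After mir-101, the lowest p at 48 h against untreated belonged to families at lower levels. Precursor reads of mir-484 were 0.529, 1.74 and 0.891 RPM in untreated and 2.01, 2.41 and 4.63 RPM at 48 h, a log2 fold change of 1.51 ± 1.11 (SE; edgeR adjusted p = 1). Precursor reads of lin-4, a developmental timing family that in mammals holds the miR-125 hairpins, were 16.4, 12.9 and 22.2 RPM in untreated and 42.7, 10.7 and 76.9 RPM at 48 h, with a log2 fold change of 1.34 ± 0.79 (SE; edgeR adjusted p = 1). Without the third 48 h library it was 0.64. The muscle family mir-1 was at 0.794, 0.0696 and 1.51 RPM in untreated and at 0, 0.107 and 0 RPM at 48 h, so it lay at or below a few counts in several libraries; its log2 fold change was -4.04 ± 2.36 (SE; edgeR adjusted p = 1), and -6.27 without the second 48 h library. The family mir-71, known from invertebrates, was at 5.23, 0.904 and 10.2 RPM in untreated, 1.47, 3.26 and 42.3 RPM at 24 h and 0.262, 0.482 and 3.23 RPM at 48 h. Its log2 fold change was -2.04 ± 1.43 at 48 h against untreated (SE; edgeR adjusted p = 1), with -1.21 without the third untreated and -3.82 without the third 48 h library. For mir-71 at 48 h against 24 h it was -3.56 ± 1.52 (SE; edgeR adjusted p = 0.521), with -0.84 without the third 24 h and -5.34 without the third 48 h library.

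The remaining families with separate groups were at lower levels. Precursor reads of mir-26, a family of growth-restraining miRNAs, were 67.2, 80.2 and 61.6 RPM in untreated, 43.1, 56 and 33.6 RPM at 24 h and 84.9, 115 and 35.6 RPM at 48 h. The 24 h group lay below untreated and overlapped 48 h. Precursor reads of mir-210, the family induced by low oxygen, were 4.86, 5.97 and 4.41 RPM at 24 h and 9.09, 27.6 and 10.9 RPM at 48 h, while untreated, at 4.3, 18.9 and 13.5 RPM, overlapped both. The 48 h libraries were all higher than those at 24 h. Those of mir-184 were 0.595, 0 and 4.45 RPM in untreated, 19.7, 16.9 and 3.76 RPM at 24 h and 0, 0.0536 and 2.44 RPM at 48 h. The first and second 24 h libraries were far above the other 7, and the third lay within the untreated range. The muscle family mir-133 was at 0.397, 1.04 and 0.178 RPM in untreated, 2.39, 2.08 and 1.69 RPM at 24 h and 0.699, 0.804 and 0.175 RPM at 48 h, above both other groups at 24 h on 2 to 30 counts a library.

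Families whose hairpins lie within 10000 bases of each other were set side by side. Among the 75 tested families there were 13 such pairs, with 16 families. The miR-125 hairpins were matched to mir-10 here by the deposited label, so lin-4 is missing from this count. Its pair with let-7, through Mirlet7e and Mir125a on chromosome 17, was counted as let-7 with mir-10. The Mir182, Mir96 and Mir183 hairpins lie together on chromosome 6. Precursor reads of mir-96 were 44.1, 56.4 and 113 RPM in untreated and 24.8, 24.9 and 23.2 RPM at 24 h, without overlap, whereas mir-182 and mir-183 overlapped between these groups. The mir-17 and mir-19 families share a cluster on chromosome 14 with mir-92, whose precursor reads were many times higher than theirs, at 430 to 946 RPM. At 24 h against untreated the log2 fold change was -0.68 ± 0.93 for mir-17 and -2.01 ± 1.18 for mir-19 (SE). For mir-92 it was 0.47 ± 0.47 (SE), and edgeR called none of them. Each of these families also pools hairpins from other chromosomes, so its reads are not those of the chromosome 14 cluster alone.

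Families were also counted by lists written from general knowledge, with medians of the log2 fold change at 24 h, 48 h and 48 h against 24 h, to be read beside 0.08, -0.10 and -0.26 for all features. Higher means a log2 fold change above 0, which 52.4%, 45% and 43.5% of all features had in these comparisons and 35, 36 and 34 of the 75 families. None of the listed families passed the edgeR threshold. Of 11 families written for inflammation and activation, 8 were tested; 1 was higher at 24 h and 5 at 48 h, with medians of -0.20, 0.08 and 0.02. The 24 h split became 4 higher of 8, with a median near 0, when the library total was taken over known features. Examples are mir-21, a family raised in inflammation and fibrosis, with 118 to 292 RPM in untreated, 156 to 272 RPM at 24 h and 163 to 283 RPM at 48 h. The myeloid and blood list had 5 tested families, 2 higher at 24 h and 3 at 48 h, but 3 and 2 with the total over known features. Its highest members were mir-16, a brake on the cell cycle, at 77.2 to 329 RPM over the 9 libraries, the endothelial mir-126 at 16 to 49.8 RPM and mir-425 at 1.04 to 13.2 RPM. Of 4 tested families of the proliferation clusters, 1 was higher at 24 h and 3 at 48 h, with medians of -0.91, 0.15 and 0.93; mir-17 ranged from 2.34 to 22.0 RPM and mir-19 from 0.786 to 8.28 RPM. All 3 of the mir-23/27/24 families were lower at 24 h, with medians of -1.81, -0.24 and 1.70. The list of other families with abundant guide strands had 9 tested, 3 higher at 24 h and 2 at 48 h, with a median of -0.66 at 24 h. The imprinted Dlk1-Dio3 list had 26 families written and 1 listed, mir-134 with 1 count, and the Sfmbt2 list had none listed.

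Markers of other cell types were read in the same way. The serum, liver and erythroid list, 6 families of which 2 were tested, summed to 14.6 to 54.6 RPM in untreated, 65.1 to 75.2 RPM at 24 h and 39.4 to 44.0 RPM at 48 h. The 24 h libraries were the highest. Most of this sum was mir-192/215 and the erythroid family mir-451, while precursor reads of mir-122, a liver family, did not exceed 0.459 RPM and those of mir-144 and mir-486 were at 0 in 8 of the 9 libraries. Precursor reads of mir-451 were 18, 4.31 and 15.1 RPM in untreated, 36.6, 37.8 and 34.4 RPM at 24 h and 18.1, 28.8 and 8.47 RPM at 48 h. The 24 h group lay above both others, as did mature mir-451 at 24 h against untreated, with 365 to 846 RPM against 60.2 to 224 RPM. Mature miR-122-5p, the liver miRNA, was at 329, 104 and 508 RPM in untreated, 693, 524 and 565 RPM at 24 h and 289, 208 and 412 RPM at 48 h, so it too was higher in the 24 h libraries than in all others. Whether this difference in marker level has a part in the other values at 24 h was not tested. The epithelial list, with 6 of 8 families tested, summed to 518 to 1335 RPM in untreated, 380 to 665 RPM at 24 h and 594 to 1110 RPM at 48 h; it is led by mir-182 and mir-183, the latter at 67.8 to 287 RPM. The mesenchymal and endothelial list, with 2 families tested, summed to 88.3 to 182 RPM in untreated, 85 to 135 RPM at 24 h and 43.2 to 146 RPM at 48 h. It was led by mir-199 at 2.95 to 147 RPM and mir-126, while mir-143 was at 0 in 7 of 9 libraries. The neuron and muscle list summed to 21.0 to 90.1 RPM, 26.4 to 48.9 RPM and 28.9 to 66.0 RPM, led by mir-128 at 12.9 to 68.5 RPM, with mir-124 at 0.209 to 14.2 RPM and mir-9/mir-79 at 1.31 to 4.54 RPM; its median and mean at 24 h differed in sign, at -0.24 and 0.25, and 5 of 7 tested families were higher with the total over known features against 2 of 7 here.

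The precursor share of a family's reads differed widely between families. Mature miRNAs could be matched to 96 families by name or deposited family label, and 56 of these had at least 100 precursor counts. Their median share of precursor reads was 7.47%, from 0.0269% for mir-25 to 74.05% for mir-133. Over 50% lay 4 families: mir-133, mir-184, mir-182 (53.6%) and mir-30 (50.2%). Under 1% lay 6: mir-25, mir-22, mir-17, mir-19, mir-10 and let-7 (0.539%). The share of mir-10 is not like for like. Mature miR-125 was matched to mir-10 by the deposited label, whereas the precursor family lin-4 holds the miR-125 hairpins. Across the 96 families, Spearman's rho between summed precursor and mature counts was 0.646, a description across families that share the same libraries.

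**Figure D4:**
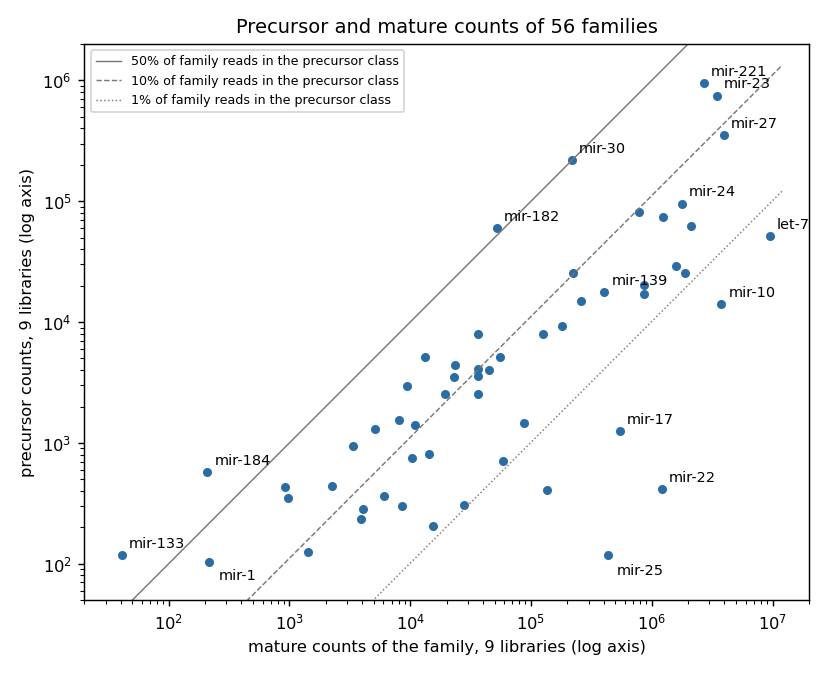
Precursor against mature counts summed over 9 libraries (log axes) for the 56 families with at least 100 precursor counts. Lines mark a precursor share of 50%, 10% and 1% of family reads; mir-30 and mir-182 lie near 50%, while let-7 and mir-22 lie below 1%.

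Some libraries stood apart for groups of families. The second 48 h library was the lowest of 9 for 22 of 75 families, and over 3 times below every other library for 8 of them: mir-378, mir-199, mir-263, mir-132, mir-96, mir-101, MIR159 and MIR396. Precursor reads of mir-96 were 1.18 RPM there against 23.2 to 113 RPM in the other 8, and those of mir-199, a mesenchymal family, 2.95 RPM against 46.7 to 147 RPM. Mature reads of mir-96 were 703 RPM in that library, within 196 to 709 RPM over all, and mature mir-199 was 347 RPM, within 196 to 606 RPM. The precursor share was then 0.168% for mir-96 against 5.97% to 14% in the other 8 libraries, and 0.842% for mir-199 against 19.2% to 24.9%. Precursor reads of mir-365 were 0 counts in the second untreated library, whose floor was 0.209 RPM, and 0.107 RPM in the second 48 h library.

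The third 24 h library had the highest summed level of families that Rfam names for plants and of families known from invertebrates, 2 lists chosen after their values were seen. It was the highest library for 7 of the 19 plant and 3 of the 14 invertebrate families. For the invertebrate families it did not stand out by this count: 5 were highest in the third 48 h library and 3 in the third untreated library. The invertebrate list does not hold every such family among the members, since Ciona mir-92 is not on it. Together the 19 listed plant families came to 162 RPM in the third 24 h library and 22.5 to 60.3 RPM in the other 8. The 14 listed invertebrate families came to 144 RPM there against 3.54 to 126 RPM. The main invertebrate family, mir-263, was at 78.9 RPM there and reached 116 RPM in the third 48 h library, and the plant family MIR398 was at 2.6 RPM there and reached 7.94 RPM in the first untreated library. By contrast, mir-166 was at 62.5 RPM there and at 7.88 to 23.0 RPM in the other 8, MIR168 at 65.3 RPM and at 2.66 to 24.4 RPM, and MIR167_1 at 17.3 RPM and at 1.72 to 3.50 RPM. A list written for families outside mammals, which also held lin-4, a family that mammals have and the highest of the list by mean, had 10 of 14 listed families tested, 7 higher at 24 h and 3 at 48 h, with medians of 0.36, -0.30 and -0.65, and 5 higher of 10 at 24 h with TMM scaling. The source of these reads was not tested.

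**Figure D5:**
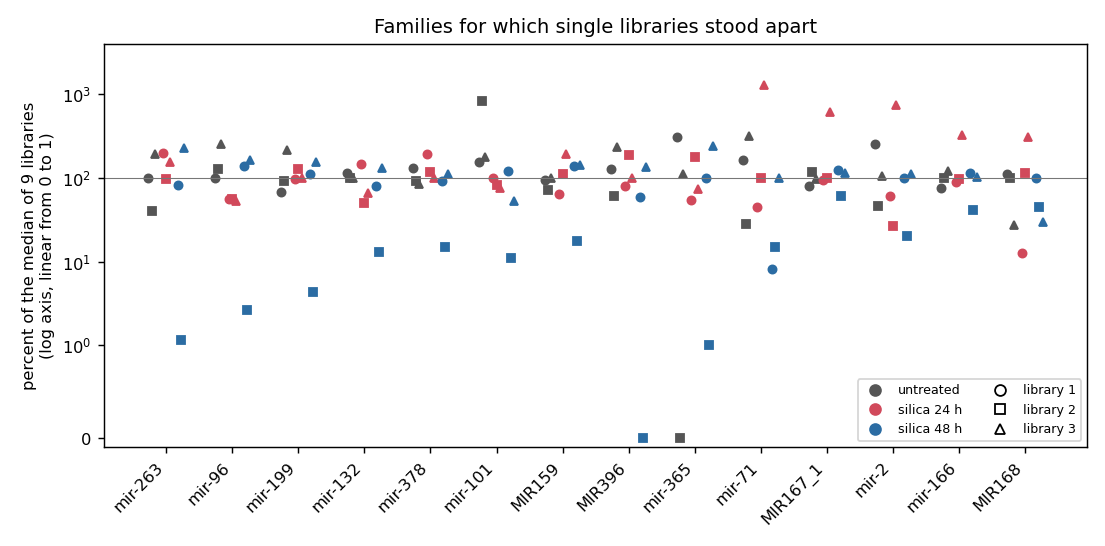
Precursor level of 14 families in each library as a percent of the family's median over 9 libraries (log axis, linear between 0 and 1). The second 48 h library lies below the others for mir-96 and mir-199, and the third 24 h library above them for mir-71 and MIR167_1.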

How the data were processed

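The 9 libraries came as 9 deposited tables, in which, per the file headers, each small RNA has a read count and a class. A deposited column headed TPM equals RPM, the count scaled to 1000000 by the header total (matched within 0.005). Trim Galore, Bowtie, HTSeq and mm10 are named in the submitters' processing notes. The sources used here do not say how reads were split between precursor and mature classes. Precursor families were joined by their Rfam identifier, and a family missing from a table was set to 0, since the class is listed from 1 count. Summed exon, intron, intergenic and repeat entries (46.5% to 61.05% of counts) and predicted miRNAs (0.0898% to 0.356%) stayed in the library total and out of the tests.

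Counts were tested in R 4.3.3 with the quasi-likelihood test of edgeR 4.0.16 on the header totals, filterByExpr with a minimum count of 10, and one fit over 9 libraries with 6 residual degrees of freedom. Adjusted p-values are Benjamini-Hochberg over 1875 features with a threshold of 0.05. Tested on simulated data with the spread of these libraries, it missed most changes of the size reported here, so an absence of calls does not show that families did not differ. The common dispersion had a square root of 1.32. DESeq2 1.42.0, limma-voom (limma 3.58.1), TMM scaling, no filter, miRNA features only, a replicate block, each library left out, and, chosen after seeing the data, a library total over known features were the alternatives. Text values come from Python 3.11.15 and pandas 2.3.3.

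Mature miRNAs were matched to a family by their number, or else by the deposited family label (319 of 1101). Families named are the 10 with the highest mean level, the 5 with the lowest p in each comparison and the 3 highest of each list; the choice of any other name followed its values. The members and lists were chosen with earlier results of these data known. Within groups, chi-square between libraries divided by its degrees of freedom was 87.4 to 851, so none were duplicates. Deviations of libraries with the same number correlated at 0.17, 0.57 and 0.37 between the 48 h and untreated groups, so each r there passed the rule of over 0.1. One pair with different numbers passed it too: the third 48 h and first untreated libraries had r = 0.158. The rule therefore did not set the match of number 1 apart from a mismatch. The labels state no pairing. Same-number values between the 24 h and untreated groups were 0.04, 0.31 and 0.27. Between the 48 h and 24 h groups they were -0.098, 0.238 and 0.158.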

Additional observations from a re-analysis of the deposited data

How the results depend on the processing

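With edgeR, 0 families were called in each comparison under TMM scaling, without the filter, with mature miRNAs and precursor families only, with a replicate block, with the total over known features and without each library in turn (0 to 0), and limma-voom called 0. DESeq2 called 1 family at 24 h against untreated, 0 at 48 h against untreated and 1 at 48 h against 24 h; the cause was not tested. The block changed no call. The precursor share of mature plus precursor reads was 7.27% in untreated, 5.25% at 24 h and 6.81% at 48 h. Of the log2 fold changes reported, those of mir-23 and mir-27 at 48 h against untreated turned sign without a library. So did that of mir-17 at 24 h against untreated, and the cause was not tested. At 48 h mir-23 was 0.65 without the third untreated and 0.04 without the second 48 h library (range -0.58 to 0.65). There mir-27 was 0.15 without the third untreated library (range -0.49 to 0.15). At 24 h mir-17 was 0.32 without the second untreated library (range -1.19 to 0.32). For mir-24 the range without each library was -1.99 to -1.71 at 24 h against untreated and 1.79 to 2.08 at 48 h against 24 h. TMM factors ran from 0.865 to 1.21 and moved the median of all features at 24 h from 0.08 to -0.25. For the 52 families with under 10 counts over all libraries, a difference was not detectable at this depth.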
